A study of Mus musculus with 6 samples.

Results

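The genes described here are 31 factors of blood coagulation and fibrinolysis, taken from the 22911 genes named on a mouse expression array. They were chosen by gene symbol: every probe whose RefSeq transcript maps to one of the 31 genes belongs to the set, which gave 40 of the 56605 probes. The rule used no measured value. The study compared livers of male mice with a liver-specific Elovl6 knockout (LKO) with livers of male control mice, titled Flox by the submitters, with 3 mice in each group and 1 array per mouse. The Elovl6 enzyme elongates palmitate and thereby supplies stearate. Mice of both groups ate a high-sucrose diet for 14 days and had a 4-hour fast before sampling, so the diet and the fast are shared by the controls. The promoter that drives the recombinase, the age of the mice and the age at deletion are not given in the sources used here.

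Most clotting factors, their inhibitors and plasminogen are made by hepatocytes and secreted into plasma as inactive precursors. Tissue factor on cells that do not normally touch blood starts a cascade of serine proteases that ends in thrombin, which cuts fibrinogen into fibrin, while antithrombin, protein C with its cofactor protein S, and other inhibitors hold the cascade back. Plasmin later dissolves fibrin. Fibrinogen is also a classical acute phase protein, whose 3 chains are transcribed together in hepatocytes when interleukin signals reach the liver.

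The results for the fibrinogen chains turn on 3 neighbouring genes, so their promoters are shown first, with that of Pros1, the member with the smallest p, which was picked after its values were seen. Each run is RefSeq sequence of build GRCm38.p6 from 250 bases before to 50 bases after the annotated start, written 5′ to 3′ on the strand of the gene. Capitals mark the letters of the motifs that were searched on both strands: CTGGGAA and TTCNNNGAA, known from STAT3 and acute phase response elements, and TTNNGCAA, known from C/EBP binding.
Fgg (chr3:83007474-83007773, plus strand): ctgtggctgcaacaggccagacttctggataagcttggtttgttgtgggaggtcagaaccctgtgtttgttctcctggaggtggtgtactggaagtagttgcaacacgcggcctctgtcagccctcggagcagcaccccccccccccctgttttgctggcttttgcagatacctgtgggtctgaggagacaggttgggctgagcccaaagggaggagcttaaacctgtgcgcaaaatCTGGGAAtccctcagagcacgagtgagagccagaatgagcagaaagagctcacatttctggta
Fga (chr3:83025903-83026202, plus strand): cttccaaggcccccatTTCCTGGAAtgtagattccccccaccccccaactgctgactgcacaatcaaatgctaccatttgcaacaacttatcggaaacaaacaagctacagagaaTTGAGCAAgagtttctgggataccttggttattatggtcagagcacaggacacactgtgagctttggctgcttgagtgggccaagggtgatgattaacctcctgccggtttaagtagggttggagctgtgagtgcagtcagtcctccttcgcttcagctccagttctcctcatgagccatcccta
Fgb (chr3:83049814-83050113, minus strand): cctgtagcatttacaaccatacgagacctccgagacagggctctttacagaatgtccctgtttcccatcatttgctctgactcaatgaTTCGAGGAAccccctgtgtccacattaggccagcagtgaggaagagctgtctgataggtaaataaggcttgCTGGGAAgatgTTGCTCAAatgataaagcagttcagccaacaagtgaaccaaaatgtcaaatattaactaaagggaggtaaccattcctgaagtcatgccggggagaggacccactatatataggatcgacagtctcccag
Pros1 (chr16:62854057-62854356, plus strand): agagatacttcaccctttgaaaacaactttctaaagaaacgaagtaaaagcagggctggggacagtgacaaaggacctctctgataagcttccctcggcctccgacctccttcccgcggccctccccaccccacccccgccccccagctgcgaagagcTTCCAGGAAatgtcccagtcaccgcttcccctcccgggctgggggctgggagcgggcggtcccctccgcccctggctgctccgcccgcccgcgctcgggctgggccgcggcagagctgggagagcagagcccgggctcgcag
The Fgb window held all 3 motifs, with TTCNNNGAA beginning at -162, CTGGGAA at -91 and TTNNGCAA, matched on the opposite strand, at -80 from the start. In Fga, TTCNNNGAA began at -234 and TTNNGCAA at -135. Fgg held CTGGGAA at -13, and Pros1 held TTCNNNGAA at -92.

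RefSeq promoters were matched for 23 of the 31 members. No entry was matched for Kng1, Proc, Serpina10, Thbd, Plg, Plat, Plau and Vwf. A gene was counted where any of its promoters of this length held the motif. Shares are of all 27025 genes with such a promoter. TTNNGCAA occurred in 9 of the 23 (Cpb2, F11, F9, Fga, Fgb, Habp2, Hrg, Klkb1 and Serpinc1) and in 12.2% of all genes. CTGGGAA occurred in 4 of the 23 (F9, Fgb, Fgg and Tfpi) and in 12.7% of all genes. TTCNNNGAA occurred in 4 (F9, Fga, Fgb and Pros1) and in 9.55% of all genes. Of the HNF1 motifs, the shorter form occurred in F13b and Habp2 and in 0.470% of all genes. The longer palindrome, which contains it, occurred in 0 members. Of those known for HNF4, CAAAGTTCA occurred in Serpind1 alone among the 23 and in 0.448% of all genes. CAAAGTCCA occurred in 0 members and in 0.555% of all genes. These matches are descriptions of the windows and were not tested.

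The array is a 1-colour Agilent design on which 52.1 to 56.6% of spots were well above background in each sample. All 6 arrays lay on 1 slide and were scanned together. The array headers place LKO 1 with all 3 controls in slide row 1 and LKO 2 and LKO 3 in slide row 2, so slide row and genotype cannot be told apart for LKO 2 and LKO 3. Values are given as scaled signals, which are the scanner's processed signals after each array's 75th percentile was set to a common level; they are comparable between arrays for the same probe and not between genes. Before that step, the 75th percentiles were 265 to 274 in LKO arrays and 287 to 298 in control arrays, and the scaling moved every log2 difference by 0.11. Elovl6 had scaled signals of 64.1, 94.0 and 102 in LKO livers, against 5994, 12079 and 6409 in control livers. Its log2 change was -6.51 ± 0.30 (SE, adjusted p = 0.00279), a level 91.0-fold lower in LKO livers, as their labels say. Elovl6 and Usp17la (log2 change 1.39 ± 0.10, adjusted p = 0.0182) were the 2 genes of 14171 that passed an adjusted p of 0.05. Here and below, log2 changes are LKO minus control, with the standard error and the Benjamini-Hochberg adjusted p of limma over all genes tested.

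Transcripts of most coagulation genes were slightly more abundant in LKO livers, but none of the differences passed the adjusted threshold. Of the 31 members, 30 were well above background on all 6 arrays and were tested, and 27 of these had higher values in LKO livers. The 3 with lower values were F3, F13b and Gas6. The count past an adjusted p of 0.05 was 0 of 30, against 0.0141% of all genes. At an unadjusted p under 0.05, 7 members were higher, against 5.56% of all genes in that direction, and 1 was lower, against 5.6% of all genes in that direction. The 7 were Pros1, Cpb2, Serpina10, Serpinf2, Fgb, Serpind1 and F9, and the 1 was F3. Together they were 26.7% of the tested members, against 11.2% of all genes. The values of the 2 groups did not overlap for 53.3% of the tested members, against 17.3% of all genes. Of these, 15 members were higher in LKO livers, against 8.11% of all genes, and 1 was lower, against 9.21%.

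The differences were small. The median log2 change of the tested members was 0.16, against 0.0031 for all genes, and 50.8% of all genes had higher values in LKO livers. The largest fold among the tested members was 1.69, for Serpina10. For 8 members, the log2 change was smaller than the 0.11 shift made by the scaling. Under scaling by the median in place of the 75th percentile, 25 of the 30 members had higher values, against 40.9% of all genes. Under quantile normalization 26 had, against 51.1% of all genes. With slide row as a term, which leaves LKO 1 against the controls, 22 had, against 49.1% of all genes. Median scaling also moved the split over all genes: 34.3% of the genes at an unadjusted p under 0.05 were higher in LKO livers, against 49.8% under the 75th percentile. With 3 mice against 3, an exact two-sided permutation test of a single gene cannot give a p below 0.1. In whole liver, fewer cells of a type and less RNA per cell cannot be told apart.

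**Figure D1:**
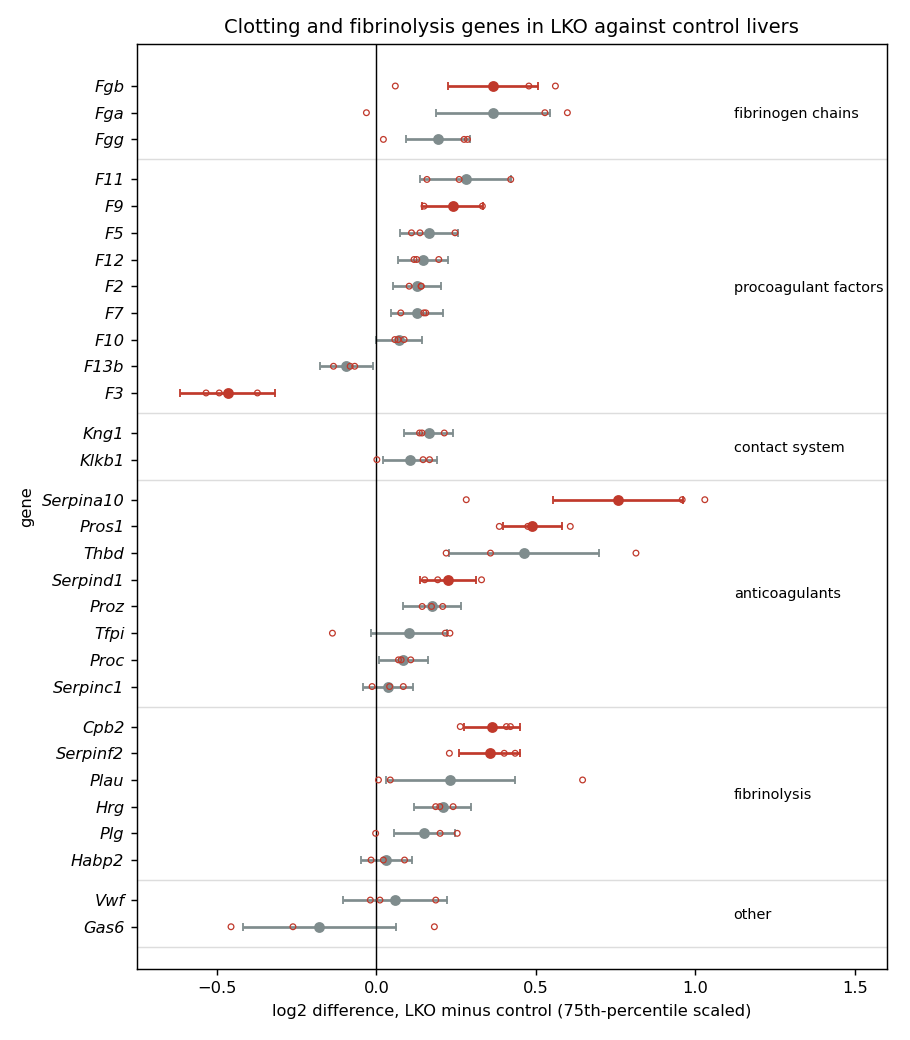
Log2 difference, LKO minus control, of the 30 tested members by role. Filled points and bars are the estimate and its SE, red where the unadjusted p was under 0.05 and grey otherwise, and open circles are each LKO mouse minus the control mean. Filled points lie right of 0 for 27 genes and left of 0 for F3, F13b and Gas6, and LKO 1 is the open circle near 0 for the 3 fibrinogen chains.

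The 3 fibrinogen chains had higher mean values in LKO livers, and the difference lay in LKO 2 and LKO 3. Fgb, the beta chain, had scaled signals of 161712, 216148 and 228975 in LKO livers, against 158705, 150902 and 156028 in control livers. The groups did not overlap, although LKO 1 was only just above the highest control. Fgb was 1.29-fold higher (log2 change 0.37 ± 0.14, 95% interval 0.03 to 0.70, adjusted p = 0.421). Fga, the alpha chain, had 12143, 18790 and 17894 in LKO livers, against 11318, 12900 and 13080 in control livers. Here LKO 1 lay within the controls while LKO 2 and LKO 3 lay above them, and the log2 change was 0.37 ± 0.18 (adjusted p = 0.508). Fgg, the gamma chain, had 203451, 242419 and 244224 in LKO livers, against 192758, 204669 and 203850 in control livers. Its groups overlapped through LKO 1 alone, with a log2 change of 0.19 ± 0.10 (adjusted p = 0.535).

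LKO 1 was the lowest LKO liver for all 3 chains. Averaged over them, the values of LKO 1, LKO 2 and LKO 3 lay 0.02, 0.45 and 0.46 log2 units from the control mean, against -0.05, 0.02 and 0.04 for controls 1, 2 and 3. LKO 1 is the LKO array that shares slide row 1 with the controls. With slide row as a term, which leaves LKO 1 against the controls, the log2 change was -0.03 for Fga, 0.06 for Fgb and 0.02 for Fgg. Without LKO 1, the log2 change was 0.56 for Fga (adjusted p = 0.123), 0.52 for Fgb (adjusted p = 0.114) and 0.28 for Fgg (adjusted p = 0.287). In the RefSeq annotation, Fgg, Fga and Fgb are neighbours with 0 other protein-coding genes between them.

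A second probe of Fga differed from the first. It had scaled signals of 3407, 3542 and 4968 in LKO livers, against 4015, 3036 and 3778 in control livers. Only LKO 3 lay above the controls at that probe, and its log2 change was 0.13 ± 0.18 (adjusted p = 0.844 in a fit of every probe). Both probes are annotated to the same RefSeq transcript.

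Of the 9 procoagulant factors, 7 had higher and 2 had lower values in LKO livers. At an unadjusted p under 0.05, F9 was higher, against 5.56% of all genes, and F3 was lower, against 5.6%. F3 encodes tissue factor, the receptor that starts clotting with factor VII. It had scaled signals of 191, 185 and 207 in LKO livers, against 215, 291 and 307 in control livers. All 3 LKO livers were below the lowest control, and F3 was 1.38-fold lower (log2 change -0.47 ± 0.15, 95% interval -0.82 to -0.11, adjusted p = 0.342). F9 encodes factor IX, the vitamin K dependent protease that activates factor X. Its scaled signals were 7756, 8284 and 7299 in LKO livers, against 6367, 6243 and 7167 in control livers. The groups did not overlap, with LKO 3 close to control 3, and the log2 change was 0.24 ± 0.10 (adjusted p = 0.436).

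Of the other procoagulant genes, F2, which encodes prothrombin, had 115593, 112651 and 115669 in LKO livers, against 104582, 102545 and 107628 in control livers. Its groups did not overlap, but the difference was small, with a log2 change of 0.13 ± 0.07 (95% interval -0.05 to 0.31). F7 (factor VII, 0.13 ± 0.08), F10 (factor X, 0.07 ± 0.07) and F12 (factor XII of the contact phase, 0.15 ± 0.08) also had groups that did not overlap. F11 (factor XI, log2 change 0.28 ± 0.14) and F5 (factor V, the cofactor of factor X, 0.16 ± 0.09) had groups that overlapped. F13b encodes the carrier subunit of factor XIII and had a log2 change of -0.09 ± 0.08, also with overlap. The median log2 change of the 9 genes was 0.13.

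The contact system genes also differed little. Kng1 encodes kininogen, which carries prekallikrein and releases bradykinin. It had scaled signals of 187958, 188989 and 198349 in LKO livers, against 170158, 167745 and 175559 in control livers. Every LKO liver was above every control at this probe, with a log2 change of 0.16 ± 0.08 (adjusted p = 0.496). Another probe of the same transcript also had groups that did not overlap (0.17 ± 0.09 in a fit of every probe). At a probe annotated to another transcript of Kng1 the groups overlapped, with LKO 1 (14062) below control 3 (14307). Its log2 change was 0.13 ± 0.09 in the same fit. Klkb1, which encodes prekallikrein, had a log2 change of 0.11 ± 0.08, and its groups overlapped. Klkb1 and F11 are adjacent protein-coding genes, as are F7, F10 and Proz.

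**Figure D2:**
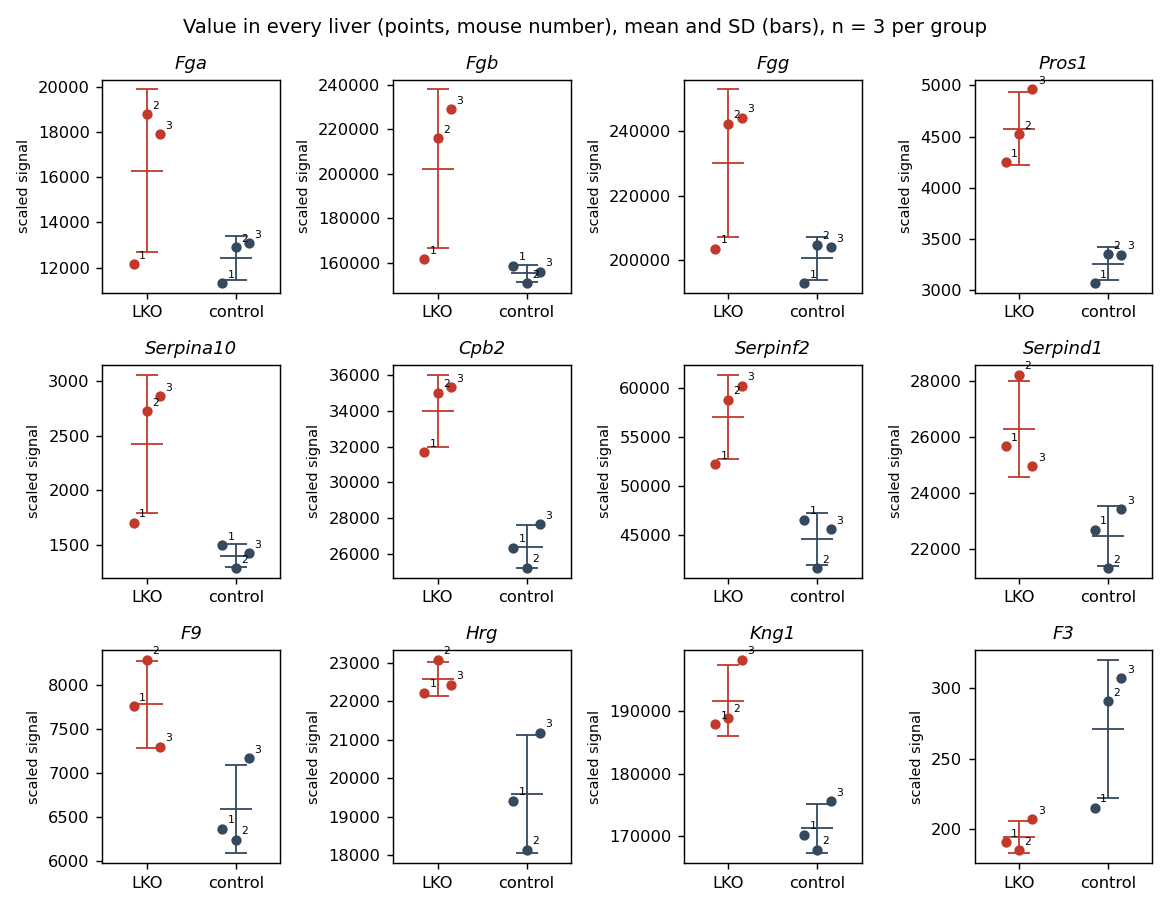
Scaled signal in each liver for 12 coagulation genes, with LKO livers left and control livers right; numbers mark the mice, and bars give the mean and SD of 3. Axes are linear and do not start at 0. Fga, Fgb and Fgg show LKO 1 near the controls, just above the highest for Fgb, and LKO 2 and LKO 3 further above them. Serpina10, Pros1, Cpb2 and Serpinf2 show all 3 LKO livers above the controls, with LKO 1 the lowest of the 3.

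All 8 anticoagulant genes had higher mean values in LKO livers, although Serpinc1 was lower under quantile normalization and median scaling. With slide row as a term, which leaves LKO 1 against the controls, Tfpi (-0.14) was lower. The median log2 change of the 8 genes was 0.20, and 3 of the 8 were at an unadjusted p under 0.05, against 5.56% of all genes in that direction. Pros1 encodes protein S, the vitamin K dependent cofactor of activated protein C. It had scaled signals of 4252, 4523 and 4961 in LKO livers, against 3072, 3354 and 3347 in control livers. The lowest LKO liver was well above the highest control. Pros1 was 1.40-fold higher (log2 change 0.49 ± 0.09, 95% interval 0.27 to 0.71) and had the smallest p of the members, but its adjusted p was 0.181. Its second probe had 290, 309 and 367 in LKO livers, against 217, 275 and 232 in control livers. The groups did not overlap at that probe either, and its log2 change was 0.42 ± 0.13 (adjusted p = 0.367 in a fit of every probe). Over all alternatives that were run, the log2 change of Pros1 lay between 0.39 and 0.54 and its adjusted p between 0.0991 and 0.944. Within slide row 1, LKO 1 was 0.39 above the control mean.

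Serpina10 encodes the protein Z-dependent protease inhibitor, which inactivates factor Xa. Its scaled signals were 1704, 2723 and 2860 in LKO livers, against 1498, 1290 and 1424 in control livers. The groups did not overlap, and LKO 2 and LKO 3 stood further from the controls than LKO 1. Serpina10 was 1.69-fold higher (log2 change 0.76 ± 0.20, 95% interval 0.27 to 1.24, adjusted p = 0.278). LKO 1, LKO 2 and LKO 3 lay 0.28, 0.96 and 1.03 log2 units above the control mean. Without LKO 1 the log2 change was 0.99 with an adjusted p of 0.0515, and with slide row as a term it was 0.28. Proz, which encodes protein Z, the cofactor of this inhibitor, had a log2 change of 0.17 ± 0.09.

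Serpind1 encodes heparin cofactor II, a thrombin inhibitor. It had 25668, 28232 and 24953 in LKO livers, against 22700, 21324 and 23417 in control livers. All LKO livers were above the controls, with a log2 change of 0.22 ± 0.09 (adjusted p = 0.431). Serpinc1, which encodes antithrombin, the main plasma inhibitor of thrombin and factor Xa, had a log2 change of 0.04 ± 0.08 (95% interval -0.15 to 0.22). Proc, which encodes protein C, had a log2 change of 0.09 ± 0.08. Thbd encodes thrombomodulin, the endothelial receptor that turns thrombin towards protein C, and had 185, 204 and 279 in LKO livers, against 176, 117 and 195 in control livers. Its groups overlapped, and its log2 change of 0.46 ± 0.23 had an adjusted p of 0.524.

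Tfpi encodes tissue factor pathway inhibitor, and its probes ran in opposite directions. The probe used for the gene had 136, 175 and 174 in LKO livers, against 155, 150 and 145 in control livers, with a log2 change of 0.10 ± 0.12. A probe annotated to another transcript of Tfpi had 99.6, 113 and 105 in LKO livers, against 116, 120 and 116 in control livers. All LKO livers were lower at that probe, with a log2 change of -0.15 ± 0.09 (adjusted p = 0.595 in a fit of every probe). One more probe was not well above background on all arrays of either group and was not tested.

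**Figure D3:**
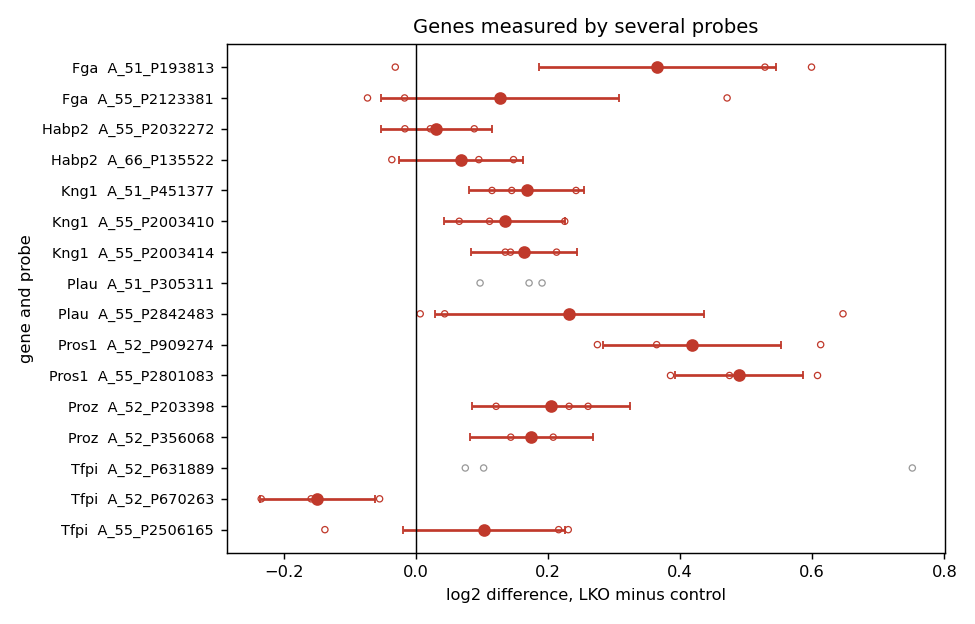
Log2 difference, LKO minus control, at each probe of the 7 members that have more than 1 probe. Filled points and bars are the estimate and SE in the fit of every probe, and open circles are each LKO mouse minus the control mean; grey circles mark probes that were not tested. Both Pros1 probes lie near 0.4 to 0.5, while the Fga and Tfpi probes differ among themselves.

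The 6 tested fibrinolysis genes had higher mean values in LKO livers, although Habp2 was lower under median scaling. With slide row as a term, which leaves LKO 1 against the controls, Plg (-0.0021) and Habp2 (-0.017) were lower. The median log2 change of the 6 genes was 0.22, and the 2 at an unadjusted p under 0.05, against 5.56% of all genes, encode inhibitors of fibrinolysis. Cpb2 encodes the carboxypeptidase that trims plasminogen-binding lysines from fibrin. It had scaled signals of 31672, 35014 and 35318 in LKO livers, against 26350, 25236 and 27648 in control livers. Every LKO liver was above every control, and Cpb2 was 1.29-fold higher (log2 change 0.36 ± 0.09, adjusted p = 0.251). Serpinf2 encodes alpha-2-antiplasmin, the main plasmin inhibitor. Its signals were 52246, 58856 and 60270 in LKO livers, against 46583, 41669 and 45643 in control livers. The groups again did not overlap, and Serpinf2 was 1.28-fold higher (log2 change 0.35 ± 0.10, adjusted p = 0.279). Within slide row 1, LKO 1 lay 0.26 above the control mean for Cpb2 and 0.23 for Serpinf2.

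Hrg encodes histidine-rich glycoprotein, which binds plasminogen and heparin, and lies near Kng1 with 1 protein-coding gene between them. It had 22231, 23089 and 22432 in LKO livers, against 19417, 18137 and 21191 in control livers. The groups did not overlap, with a log2 change of 0.21 ± 0.09 (adjusted p = 0.457). Plg, which encodes plasminogen, had a log2 change of 0.15 ± 0.10, Habp2, a plasma serine protease that binds hyaluronan, one of 0.03 ± 0.08, and Plau, the urokinase activator, one of 0.23 ± 0.20. All 3 had groups that overlapped. Plat encodes the tissue plasminogen activator and had 24.0, 16.9 and 14.2 in LKO livers, against 5.67, 8.00 and 12.1 in control livers. It was well above background on 1 LKO array and 0 control arrays, so it was not tested and no fold is given.

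Vwf and Gas6 remained of the set. Vwf encodes von Willebrand factor of endothelium and platelets and had a log2 change of 0.06 ± 0.16, with groups that overlapped. Without control 1 it was -0.11. Gas6, a vitamin K dependent ligand of the TAM receptors related to protein S, had 2516, 2878 and 3913 in LKO livers, against 2537, 3762 and 4301 in control livers. Its groups overlapped, and its log2 change was -0.18 ± 0.24.

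Regrouped by biochemistry, the 8 vitamin K dependent proteins (F2, F7, F9, F10, Proc, Pros1, Proz and Gas6) had a median log2 change of 0.13, with 7 higher, 1 lower and 2 at an unadjusted p under 0.05, against 11.2% of all genes. The 4 serpins (Serpinc1, Serpind1, Serpina10 and Serpinf2) had a median of 0.29, with 4 higher, of which Serpinc1 turned under quantile normalization and median scaling, and 3 at an unadjusted p under 0.05, against 5.56% of all genes. Over all 30 tested members, the mean of LKO 1, LKO 2 and LKO 3 lay 0.08, 0.20 and 0.26 log2 units above the control mean, against -0.03, -0.04 and 0.07 for controls 1, 2 and 3.

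Related genes outside the set were counted in the same way, and the counts differed between the lists. In any of the lists below, 0 genes were past the adjusted threshold. Of 14 tested of 18 other clotting and fibrinolysis genes, 10 had higher values. Their median log2 change was 0.12, and it was 0.26 without LKO 1 and 0.06 without LKO 3. At an unadjusted p under 0.05, 6 of the 14 were higher, against 5.56% of all genes, and 1 was lower, against 5.6%. Serpine2, which encodes the thrombin inhibitor protease nexin-1, had 1727, 1405 and 1421 in LKO livers, against 702, 1003 and 991 in control livers (log2 change 0.77 ± 0.17, adjusted p = 0.218). Vtn encodes vitronectin, an adhesive glycoprotein of plasma, and had a log2 change of 0.32 ± 0.08 (adjusted p = 0.267).

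Clotting factors are carboxylated and exported before they act. Of 10 genes of the vitamin K cycle and of factor secretion, 7 had higher values and 0 were at an unadjusted p under 0.05, against 11.2% of all genes. Their median log2 change was 0.06, and its sign turned without LKO 2 (-0.03) and with slide row as a term (-0.03). Vkorc1, the vitamin K epoxide reductase, had a log2 change of 0.16 ± 0.08, and Pdia3, a disulphide isomerase, one of 0.31 ± 0.17. Of 7 thrombin and TAM receptors, 4 were tested, 3 had higher values and the median was 0.07, with a range of 0.00095 to 0.17 over the alternatives. The smallest p values there were for Mertk (0.19 ± 0.09) and the thrombin receptor F2r (0.12 ± 0.15). Of 14 regulators of liver clotting genes, 9 had higher values and 3, all higher, were at an unadjusted p under 0.05, against 5.56% of all genes. Their median was 0.18, and 0.12 without LKO 3. Esr1, the estrogen receptor alpha gene, had 451, 533 and 425 in LKO livers, against 275, 281 and 356 in control livers (log2 change 0.63 ± 0.14, adjusted p = 0.224). Il6ra, the interleukin receptor of the acute phase response, had 1939, 2538 and 3087 in LKO livers, against 1402, 1836 and 1515 in control livers (log2 change 0.65 ± 0.19, adjusted p = 0.301).

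Acute phase proteins other than fibrinogen had a median log2 change of 0.89, beside 0.16 for the coagulation genes, and the difference between the lists was not tested. All 25 had higher values in LKO livers, 22 at an unadjusted p under 0.05, against 5.56% of all genes, and 0 past the adjusted threshold. Saa2 was 11.1-fold and Saa1 9.74-fold higher, each with an adjusted p of 0.100. Averaged over the 25 genes, LKO 1, LKO 2 and LKO 3 lay 0.71, 1.38 and 1.81 log2 units above the control mean, against -0.17, -0.09 and 0.26 for controls 1, 2 and 3. In this average LKO 1 was the lowest of the LKO livers, although not for every gene: Hamp, the hepcidin gene, had 24135, 20432 and 15922 in LKO livers, against 15050, 6575 and 18359 in control livers. Within slide row 1 the median was 0.41.

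**Figure D4:**
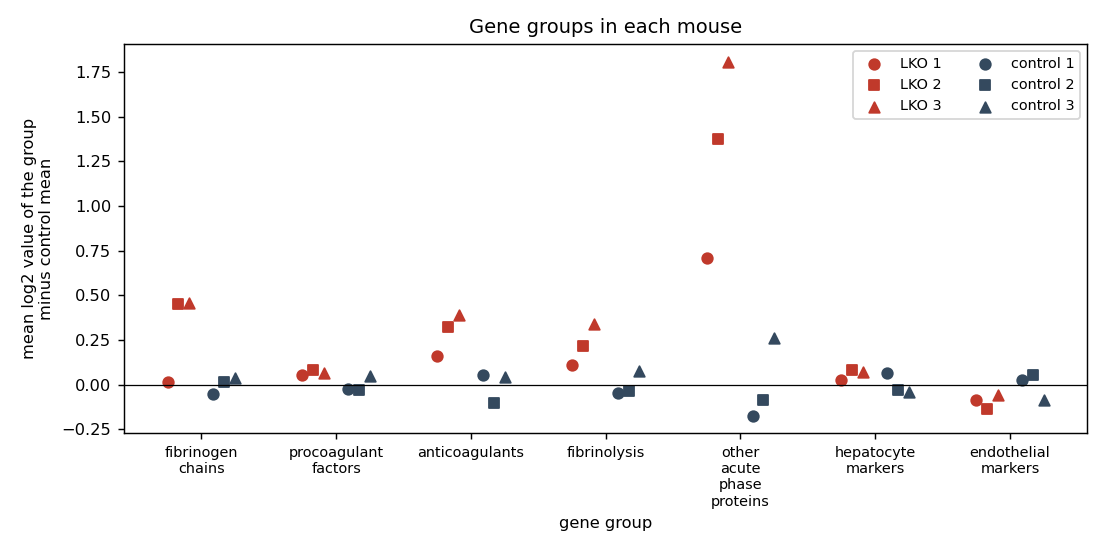
Mean log2 value of each gene group in each mouse minus the mean of the controls; red symbols are LKO mice and dark symbols control mice. For the fibrinogen chains, LKO 1 lies at 0.02 and LKO 2 and LKO 3 at 0.45 and 0.46, and for the other acute phase proteins the LKO mice lie at 0.71, 1.38 and 1.81.

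Markers of the cell types that could contribute clotting transcripts were read beside these values, and none of the marker genes passed the adjusted threshold of limma. Shares of all genes at an unadjusted p under 0.05 were 5.56% higher and 5.6% lower, and a sum of scaled signals follows its brightest probes. The 10 hepatocyte markers had 8 higher values, 1 at an unadjusted p under 0.05 and a median log2 change of 0.07, with summed scaled signals of 1362120 to 1394780 in LKO livers and 1298040 to 1345150 in control livers. That median lay between 0.03 and 0.13 over the alternatives, with 0.13 without control 1. Ambp (0.22 ± 0.08) and Ttr (-0.16 ± 0.08) had the smallest p. The 11 endothelial markers, read beside Vwf, Thbd and Tfpi, had 4 higher values, 0 at an unadjusted p under 0.05 and a median of -0.02, and their sums were 17381 to 18471 in LKO livers and 16859 to 17987 in control livers. The median lay between -0.06 under median scaling and 0.02 without control 3. Tie1 (-0.18 ± 0.08) and Flt4 (-0.27 ± 0.16) had the smallest p. Of 10 platelet markers, 4 were tested, 4 of 4 with higher values and their median at 0.35, led by Ppbp (0.55 ± 0.13) and Itgb3 (0.22 ± 0.10). The median was 0.05 with slide row as a term and 0.58 without LKO 1. Of the 4, 1 was at an unadjusted p under 0.05, and their sums were 455 to 744 in LKO livers and 424 to 484 in control livers. The defining markers Itga2b, Gp1ba, Gp1bb, Gp9, Gp6 and Treml1 were not well above background on all arrays of either group.

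Macrophages and neutrophils were read in the same way. The 10 macrophage markers all had higher values. Their log2 changes had a median of 0.21, which was 0.08 with slide row as a term, 0.34 without control 2 and 0.09 without control 3, and their sums were 30689 to 36524 in LKO livers and 24787 to 34032 in control livers. Lyz2 (0.46 ± 0.12) and Marco (1.25 ± 0.41) were the 2 at an unadjusted p under 0.05. Of 6 neutrophil markers tested, 4 had higher values, 3 of them at an unadjusted p under 0.05, and the median was 0.70. That median was 0.40 with normexp, 0.38 without a filter on dim probes and 0.36 with slide row as a term. S100a8 (2.43 ± 0.61) and Retnlg (1.23 ± 0.33) had higher values, while Elane and Csf3r had log2 changes of -0.19 and -0.04. The sums were 20800 to 24285 in LKO livers and 19249 to 22336 in control livers, and Csf3r alone made up 16705 to 18961 in LKO livers and 16894 to 20113 in control livers, so the sum says little of the other markers. Of 8 stellate cell markers, 4 had higher values, with Hgf at 0.52 ± 0.14 and Des at -0.76 ± 0.24, the 2 at an unadjusted p under 0.05, and sums of 15046 to 17554 in LKO livers and 14655 to 16227 in control livers. Of 4 bile duct markers tested, 2 had higher values, with Krt19, the 1 at an unadjusted p under 0.05, at -0.69 ± 0.20 and Pkhd1 at -0.42 ± 0.18. Their sums were 1371 to 2422 in LKO livers and 1455 to 1803 in control livers. All 5 of the erythroid markers tested had higher values, with Slc4a1, the 1 at an unadjusted p under 0.05, at 0.74 ± 0.29 and Hbb-bt at 0.41 ± 0.23. Averaged over the 5, LKO 1, LKO 2 and LKO 3 lay 0.68, 0.35 and -0.01 log2 units from the control mean. The median of these 5 markers was 0.26, and it was 0.10 without LKO 1 and 0.59 with slide row as a term. Their sums were 86881 to 140443 in LKO livers and 78834 to 110788 in control livers. The part of these cell types in the differences of the coagulation genes was not tested.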

How the data were processed

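Total liver RNA of 6 mice was labelled with Cy3 and hybridised to 1-colour Agilent arrays. Per the submitters' processing notes, the scans were read with Agilent Feature Extraction 11.5.1.1. The deposited scanner files give, per the file headers, a processed signal intensity per spot, background-subtracted by that software, with flags for spots well above background, saturated or outlying. The deposited value table holds the authors' signal intensity: each array's column equals the processed signal times 1 constant, of 2.08 to 2.48, and its medians were 63.7, 59.1 and 62.2 in LKO arrays and 55.3, 62.9 and 61.5 in control arrays. The origin of that constant is not stated in these sources.

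From the files, log2 processed signals were centred on each array's 75th percentile over 59305 spots without controls, outlier spots (64 to 111 per array) were left out, and spots of a probe were averaged. Scaled signals are these values returned to the linear scale at the common level of 281. RefSeq accessions named 32994 of 56605 probes with 1 symbol, 0 with several and 23611 with none. The probe with the highest mean stood for a gene. Genes were tested where 1 group or both had the probe well above background on every array, 14171 in all, with limma 3.58.1 in R 4.3.3 and Benjamini-Hochberg adjustment, two-sided, at 0.05. The pipeline was tested on simulated data in which 200 genes changed 2-fold, 4-fold or 8-fold, and 75.8% were recovered at 2-fold. Changes as small as those of the tested members, at most 1.69-fold higher, were not simulated. The number of arrays limits the precision. Mice were separate animals per the labels. Same-numbered mice of the 2 groups were not paired, since the correlations of their deviations were 0.04, -0.05 and -0.07.

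The members, gene lists and motifs were chosen with earlier results of these data known. Values in every liver are given for the 3 fibrinogen chains, the 10 members with the smallest p and those at an unadjusted p under 0.05, and from each other list the 2 genes with the smallest p are named; further values by liver were added after the values were seen. A gene of the other clotting list is not reported here. Alternatives changed the scaling, background correction, source table, filter, choice of probe, variance model and replicates. Terms for slide row, and normexp on median signals, since no mean signal column was in the files, were added after seeing the data.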

Additional observations from a re-analysis of the deposited data

How the results depend on the processing

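The count of coagulation members past the adjusted threshold was 0 in all 17 alternatives. The count of genes past it, 2 as reported, was 16 with normexp, 1 without a filter on dim probes, 1 with the filter on all arrays, 6 with every probe on its own, 13 with trend and robust variances, 1 with slide row as a term and 1 to 15 when 1 mouse was left out, with 15 without LKO 1, 4 without control 1 and 1 without LKO 3, control 2 or control 3. The count of members at an unadjusted p under 0.05, 8 of 30 as reported, stood beside 1582 of 14171 genes. It was 11 with trend and robust variances, beside 1610 genes, and 5 under median scaling, beside 1523 genes. When 1 mouse was left out it was 4 to 8, beside 1189 to 1942 genes. It was 4 without LKO 2, beside 1189 genes, and 4 without control 2, beside 1229 genes. Over the alternatives except slide row as a term it was 4 to 11. That term leaves only LKO 1 against the controls, so no count of members is given for it. The median log2 change of the members, 0.16 as reported, was 0.11 with slide row as a term and within slide row 1, and 0.14 to 0.21 when 1 mouse was left out. Signs turned for Serpinc1 (-0.051 under quantile normalization and -0.0020 under median scaling) and Habp2 (-0.0084 under median scaling). With slide row as a term they turned for Fga (-0.031), Tfpi (-0.14), Plg (-0.0021), Habp2 (-0.017) and Vwf (-0.019). Vwf also turned without LKO 3 (-0.0038), and leaving out 1 mouse gave it -0.11 without control 1 and 0.19 without control 3. The cause was not tested, except that the slide row term leaves only LKO 1 against the controls. With the replicate block, 3 genes and 0 members passed the threshold and the median of the members was 0.16. In that fit 7 members were at an unadjusted p under 0.05, beside 1331 of all genes. The labels do not say that the numbers pair the mice, and each of the 3 LKO livers correlated best with a control of another number. Of the acute phase genes, 2 passed the threshold with normexp, 2 with the replicate block and 3 without LKO 1. Signal over background limits Plat, which was well above background on 1 array.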
